A study of Homo sapiens with 9 samples.

Results

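The early transcriptional response of PANC-1 cells to BRD7552 was examined on 6 of the 9 arrays of the series: 3 arrays of cells exposed to BRD7552 for 6 h and 3 arrays of cells given its solvent, DMSO. The arrays were chosen by their labels alone, and the comparison covers all genes that could be tested. PANC-1 is an established cell line from a human pancreatic carcinoma with ductal features, and all groups come from this line grown in 6-well plates. BRD7552 is a small molecule used here at 5 uM, a dose that the design text sets by the strongest induction of PDX1. The labels give no exposure time for the DMSO arrays, so time in culture and exposure cannot be told apart. Nor do they state whether the replicates came from different cultures. The p-values therefore cover the spread among arrays alone, and it may be technical. The fit that gave them also took in the spread of the 72 h arrays of the series. In bulk RNA, fewer cells that express a gene and less RNA of it per cell cannot be told apart.

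Within hours a cell can answer a compound through pathways that need no new protein to start. In the amino acid response, stress kinases slow general translation while the messenger of the factor ATF4 is still translated, and ATF4 then switches on genes for amino acid synthesis, amino acid import and brakes on the growth kinase complex mTORC1. In the sterol response, SREBP factors leave the endoplasmic reticulum when sterols are low and switch on the enzymes of cholesterol synthesis together with their own brake, INSIG1. The ID genes are direct targets of BMP and TGF-beta signals, and HOX genes encode factors that give cells their position along the body axis and lie side by side in clusters.

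Each array gave 1 signal per probe set, a group of short probes for the same transcript, in linear units. A gene was represented by its brightest probe set, and 12678 genes lay at or above the median probe set (17.8 units). The median signal was 17.7 to 18.5 units and the upper quartile 112 to 119 units over the 6 arrays. The signal ratio of the 3' to the 5' end of the ACTB control was 1.74 to 2.05 at 6 h, with the lowest value on 6 h replicate 1, and 1.91 to 2.01 in DMSO. Over genes, the median SD among replicates was 0.0667 log2 units in DMSO and 0.0750 at 6 h, and the number of arrays limits the precision. All 7 epithelial and ductal markers tested (KRT7, KRT8, KRT18, KRT19, EPCAM, CDH1 and SOX9) lay above the filter, with summed signals of 34306 to 35159 in DMSO and 34662 to 34787 at 6 h. They were uneven: the DMSO mean was 16982 units for KRT18, 123 for KRT7 and 52.4 for CDH1. Of 4 mesenchymal markers 3 also lay above the filter, VIM, ZEB1 and CDH2. The sums of the 4 were 18310 to 18414 in DMSO and 18106 to 18558 at 6 h. Of the 4 leukocyte markers and 2 acinar markers that could be read, 0 lay above it, with summed signals of 33.4 to 42.3 and 18.1 to 20.8 units over the 6 arrays. Among 4 endothelial markers 1 lay above it, PECAM1, and the sums were 44.2 to 54.6 units.

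After 6 h, 60 genes had changed, which is 0.473% of the genes tested. Of these, 46 rose (0.363%) and 14 fell (0.11%), by limma with Benjamini-Hochberg adjusted p below 0.05. In these 60 genes no 6 h array overlapped any DMSO array, which also held for 12.2% of all genes (6.26% higher and 5.94% lower at 6 h). Most changes were small: 12 genes rose at least 1.5-fold and 1 of these, INSIG1, at least 2-fold, while the largest fall, that of SKIL, was to 0.70 of the DMSO level. The genes that rose had a median DMSO signal of 374 units, those that fell 1473 units, and all genes tested 211 units. At an unadjusted p under 0.05 there were 582 genes, or 4.59%.

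**Figure D1:**
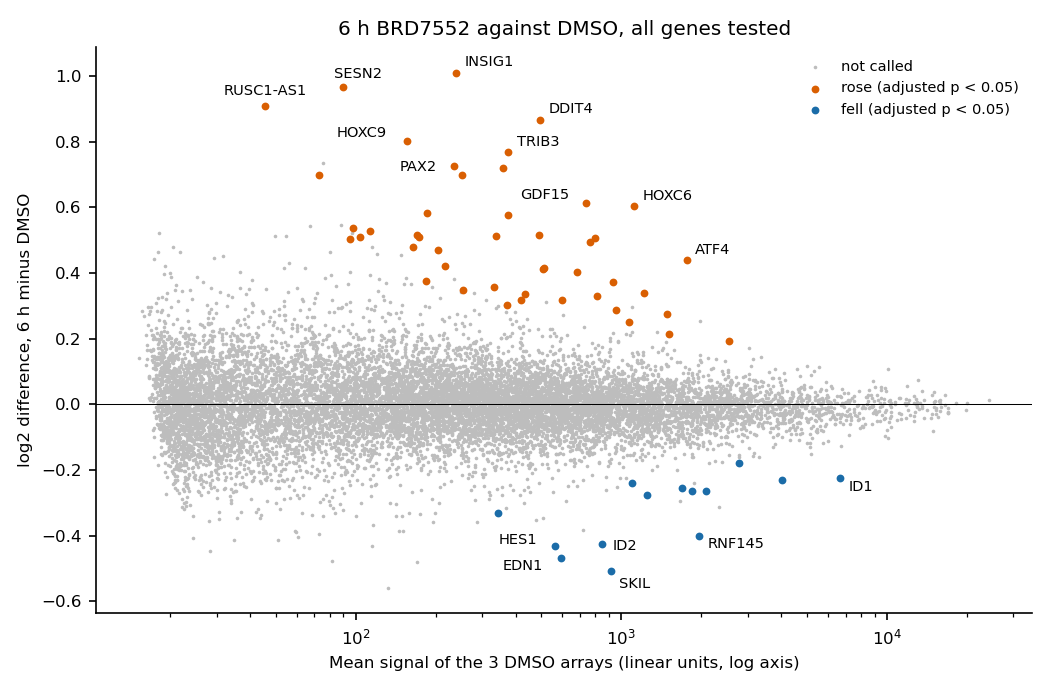
Mean signal of the 3 DMSO arrays (x axis, linear units on a log axis) against the log2 difference of 6 h BRD7552 minus DMSO (y axis) for the 12678 genes tested, 1 point per gene. The 46 genes that rose are orange and the 14 that fell are blue. INSIG1 is the highest point at 1.01 and SKIL the lowest blue point at -0.51, while the brightest gene that fell is ID1.

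The calls did not rest equally on all arrays. With 1 array left out in turn, 27 of the 60 genes kept their call each time, 25 of them higher and 2 lower (EDN1 and RNF145), and 15 lost it whichever array was left out. Over all genes, leaving out DMSO replicate 1 gave 31 calls, replicate 2 gave 38 and replicate 3 gave 34, and leaving out 6 h replicate 1 gave 44, replicate 2 gave 28 and replicate 3 gave 34. With each array centred on its median, which left the median gene at 0.0077 log2 units, 33 genes rose and 4 fell. With the mean of all probe sets of a gene 22 of the 60 kept their call, and without a trend in the prior variance also 22. The sign of the difference stayed the same for every one of the 60 genes in each of the 19 alternatives that included it. Since the groups did not overlap in these genes, leaving out an array could not have changed the sign.

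**Figure D2:**
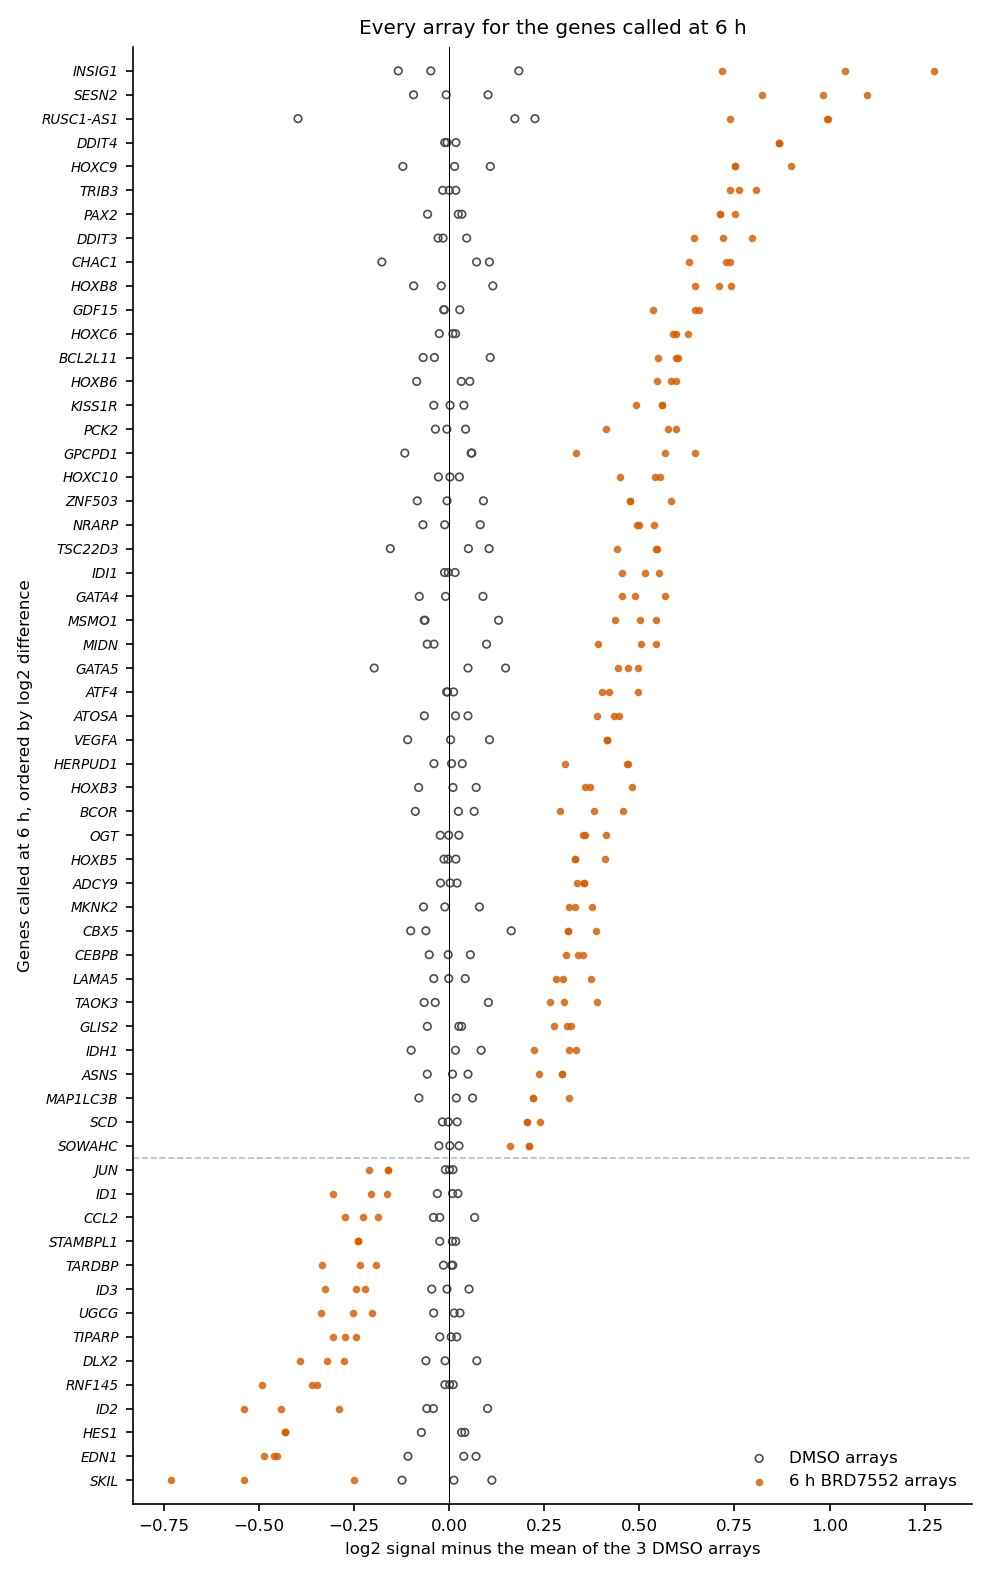
Every array for the 60 genes called at 6 h, from the largest rise (top) to the largest fall (bottom). The x axis is the log2 signal minus the mean of the 3 DMSO arrays, open circles are DMSO arrays, orange points are 6 h arrays, and the dashed line parts the 46 rises from the 14 falls. In no row do the 2 groups overlap. RUSC1-AS1, INSIG1 and SKIL have the widest spread, and DDIT4, VEGFA and STAMBPL1 have the same deposited value on all 3 arrays of 6 h.

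The gene lists used here and below were chosen with earlier results of these data known. Their shares of called genes are therefore descriptions, and enrichment was not tested. Of the gene families listed, the amino acid response held most called genes. Of 59 tested genes in it, 11 rose, 0 fell and 48 did not pass, against 0.363% of all genes that rose. The median log2 difference over the 59 was 0.11, beside -0.00095 over all genes. Among its factors, ATF4 itself read 1757, 1759.7 and 1779 units on the DMSO arrays and 2363, 2492 and 2331 at 6 h. It rose 1.36-fold (a log2 difference of 0.44 ± 0.051, where ± gives the standard error unless stated otherwise, n = 3 per group, limma adjusted p = 0.000313), and the arrays of each group lay close together. DDIT3, which encodes the pro-apoptotic factor CHOP, went from 351, 355 and 370.3 to 561, 623 and 591 units, and CEBPB, a partner of ATF4 at DNA, from 843, 809.8 and 782 to 1034, 1004 and 1025 units. DDIT3 rose 1.65-fold (log2 0.72 ± 0.063) and CEBPB 1.26-fold (log2 0.33 ± 0.048), and the calls of all 3 factors held whichever array was left out. Of the 8 factors listed, 3 rose and 5 did not pass. Among the latter, ATF3, an induced relative of ATF4, read 41.9, 65.9 and 55.7 units on the DMSO arrays and 69.9, 85.9 and 74.5 at 6 h. Its groups did not overlap either, but the DMSO arrays alone spanned from 41.9 to 65.9 units (log2 0.51 ± 0.17, limma adjusted p = 0.508). NUPR1, a stress-induced chromatin protein, stood at 0.37 and CEBPG at 0.22, while ATF5 stood at -0.082.

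The brakes and feedback genes held the 3 largest rises of the pathway. DDIT4, an inhibitor of mTORC1, read 494, 502 and 492 units on the DMSO arrays and 905, 905 and 905 at 6 h. The 6 h arrays held exactly the same value, so the SD of that group was 0 and the spread in the test came from the other arrays of the fit (log2 0.87 ± 0.045, limma adjusted p = 8.57e-08). SESN2, a sestrin that restrains mTORC1 when leucine is short, was dimmer, at 88.6, 83.5 and 95.7 units on the DMSO arrays and 176, 191 and 158 at 6 h, a rise of 1.96-fold. TRIB3, a pseudokinase that feeds back on ATF4, read 371, 375 and 379.9 units on the DMSO arrays and 626, 657 and 636 at 6 h, and the groups lay far apart relative to their spread (SE 0.051 for a log2 difference of 0.77). CHAC1, which degrades glutathione, read 76.5, 64.3 and 78.3 units on the DMSO arrays and 121, 121 and 113 at 6 h. It was a less certain call (limma adjusted p = 0.0196), lost whichever of the 6 arrays was left out. Of the 9 tested, 5 did not pass: EIF4EBP1 stood at 0.059, SESN1 at 0.048, PPP1R15A at -0.033, TRIB2 at -0.069 and TRIB1 at -0.26. TRIB1 and TRIB3, of 1 family of pseudokinases, thus lay on opposite sides of 0.

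Among enzymes, transporters and synthetases calls were fewer. PCK2, the mitochondrial phosphoenolpyruvate carboxykinase, read 111, 117 and 113 units on the DMSO arrays and 169, 172 and 151 at 6 h. It rose 1.44-fold (log2 0.53 ± 0.084, limma adjusted p = 0.00678), a call lost without DMSO replicate 1 or 6 h replicate 2. ASNS, asparagine synthetase, was much brighter and read 1429, 1497 and 1539.6 units on the DMSO arrays and 1828, 1752 and 1828 at 6 h, a rise of 1.21-fold that held whichever array was left out. The other 10 of 12 synthesis enzymes did not pass. CTH, which makes cysteine from cystathionine, had the largest value among them, 0.51 ± 0.13, and the serine enzymes PHGDH and PSAT1 stood at 0.16 and 0.14. Of 9 amino acid transporters 0 passed by limma, while 3 had an unadjusted p under 0.05, beside 4.59% of all genes. SLC7A11, the cystine importer, read 222, 232 and 252 units on the DMSO arrays and 271, 334 and 318 at 6 h, without overlap (log2 0.38 ± 0.089, limma adjusted p = 0.101). Of 17 cytosolic aminoacyl-tRNA synthetases, which load amino acids onto tRNA, limma called 0. An unadjusted p under 0.05 was found for 6 of them, again beside 4.59% of all genes. The values of the 17 ran from -0.046 to 0.16, with a median of 0.031.

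Of 4 secreted products 2 rose, beside 0.363% of all genes. GDF15, a stress-induced cytokine, read 754, 732 and 733 units on the DMSO arrays and 1156, 1165 and 1071 at 6 h. VEGFA, an angiogenic growth factor that ATF4 can induce, read 474, 549.6 and 512 units on the DMSO arrays and 681, 681 and 681 at 6 h, again with equal values on all 6 h arrays. GDF15 rose 1.53-fold and VEGFA 1.33-fold. Neither passed with the mean of all probe sets, at log2 0.19 for GDF15 and 0.25 for VEGFA. STC2, stanniocalcin 2, stood at 0.30 ± 0.074 without passing, and ADM2 at 0.023. GDF15 also counts as a p53 target, and SESN2 and GDF15 were the 2 of 17 tested p53 targets that rose, with 15 not passing. CDKN1A, the p53-induced cell cycle inhibitor, stood at -0.26 and MDM2 at 0.063. HERPUD1, which acts in protein degradation at the endoplasmic reticulum, read 519, 493 and 509 units on the DMSO arrays and 626, 702 and 701 at 6 h, and was the 1 of 21 chaperone and unfolded protein response genes that rose. It did not pass with the mean of all probe sets, at 0.26. The others had values from -0.22 to 0.19, with HSPA5, the main chaperone of that compartment, at 0.12.

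ATF4 binds a composite element whose core was searched as TGATGNAA on both strands in the 250 bases before the RefSeq gene start (GRCh38.p14). A promoter was in the table for 45 of the 60 called genes, 32 that rose and 13 that fell. The core occurred in 3 of the 32 and 0 of the 13, beside 3.19% of all 27305 promoters and 1.41% of the 10271 promoters of genes tested. The 3 stretches are shown because they hold the matches among the genes that rose, with the match in capitals.
ASNS (chr7:97872413-97872532, minus strand): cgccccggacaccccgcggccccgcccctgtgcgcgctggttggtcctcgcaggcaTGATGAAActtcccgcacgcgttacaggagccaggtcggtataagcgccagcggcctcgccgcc
CHAC1 (chr15:40953221-40953340, plus strand): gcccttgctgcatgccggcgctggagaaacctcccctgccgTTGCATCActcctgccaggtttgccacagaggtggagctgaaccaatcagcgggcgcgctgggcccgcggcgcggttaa
HERPUD1 (chr16:56931910-56932029, plus strand): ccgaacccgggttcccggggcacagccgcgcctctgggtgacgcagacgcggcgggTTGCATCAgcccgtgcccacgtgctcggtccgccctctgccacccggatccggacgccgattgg
The match begins 68 bases before the start in ASNS, 209 in CHAC1 and 176 in HERPUD1. In ASNS it runs in the direction of the gene and in CHAC1 and HERPUD1 on the other strand, where both carry the same letters. SESN2, DDIT4, TRIB3, DDIT3, PCK2 and GDF15 had no match in this window. A match is a description of the letters and not a measured site.

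In sterol regulation 4 genes rose, 1 fell and 37 did not pass among 42 tested, beside 0.363% of all genes that rose and 0.11% that fell. Their median log2 difference was 0.078. INSIG1, which holds SREBP in the endoplasmic reticulum and is itself an SREBP target, read 216, 269 and 229.5 units on the DMSO arrays and 390.3, 488 and 574 at 6 h. The lowest 6 h array, replicate 1, lay well above the highest DMSO array, replicate 2, and the call held whichever array was left out, with log2 values of 0.88 to 1.16. Of 10 SREBP factors and regulators 8 did not pass. SREBF1, the SREBP gene tied mostly to fatty acid synthesis, read 83.8, 75.0 and 80.8 units on the DMSO arrays and 118, 106 and 106 at 6 h, without overlap but short of the threshold (log2 0.46 ± 0.11, limma adjusted p = 0.110). SREBF2 stood at 0.085, SCAP at -0.0041 and INSIG2 at 0.011. RNF145, a membrane ubiquitin ligase linked to SREBP and HMG-CoA reductase control, fell by 0.40 on the log2 scale (SE 0.049), from 1979, 1966 and 1949 to 1398, 1528 and 1543 units.

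Along the synthesis route, IDI1, the isopentenyl diphosphate isomerase, read 788, 793 and 803 units on the DMSO arrays and 1166, 1089 and 1136 at 6 h. MSMO1, the sterol C4-methyl oxidase, read 730.3, 836 and 731 units on the DMSO arrays and 1033, 1082 and 1115 at 6 h. Both kept their calls whichever array was left out, but with the mean of all probe sets IDI1 stood at 0.25 and did not pass. Each stood alone in its stretch of the route: 7 of 8 mevalonate and isoprenoid genes and 9 of 10 genes from squalene to cholesterol did not pass. Of these 10 later genes, 9 lay above 0, as did 6279 of the 12678 genes tested, and 8 had groups that did not overlap, as did 12.2% of all genes. SC5D, sterol desaturase, came nearest with 905, 928 and 883 units on the DMSO arrays and 1042, 1044 and 1039.8 at 6 h (log2 0.20 ± 0.045, limma adjusted p = 0.0800). HMGCS1, HMG-CoA synthase, read 115, 133 and 117 units on the DMSO arrays and 133, 166 and 166 at 6 h, where 6 h replicate 1 equalled DMSO replicate 2. STARD4, a sterol carrier, stood at 0.55 ± 0.14 without passing, the largest value among 5 uptake and transport genes. In fatty acid synthesis SCD, stearoyl-CoA desaturase, rose 1.16-fold, from 1506, 1531 and 1490.3 to 1779, 1739.5 and 1738 units, a call lost whichever array was left out. FASN stood at 0.18, LPIN1 at 0.27 and ACACA at -0.021. A core of the sterol response element, searched as TCACNCCA on both strands, lay in 1 of the 32 promoters of genes that rose, that of MSMO1, and in 2 of the 13 of genes that fell, beside 3.18% of all promoters and 2.73% of those of genes tested. The stretch from MSMO1 is shown because it is the match in a sterol enzyme gene that rose.
MSMO1 (chr4:165327457-165327576, plus strand): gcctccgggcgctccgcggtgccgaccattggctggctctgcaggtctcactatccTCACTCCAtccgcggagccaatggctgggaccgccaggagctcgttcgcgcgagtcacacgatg
The match, in capitals, begins 156 bases before the start.

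**Figure D3:**
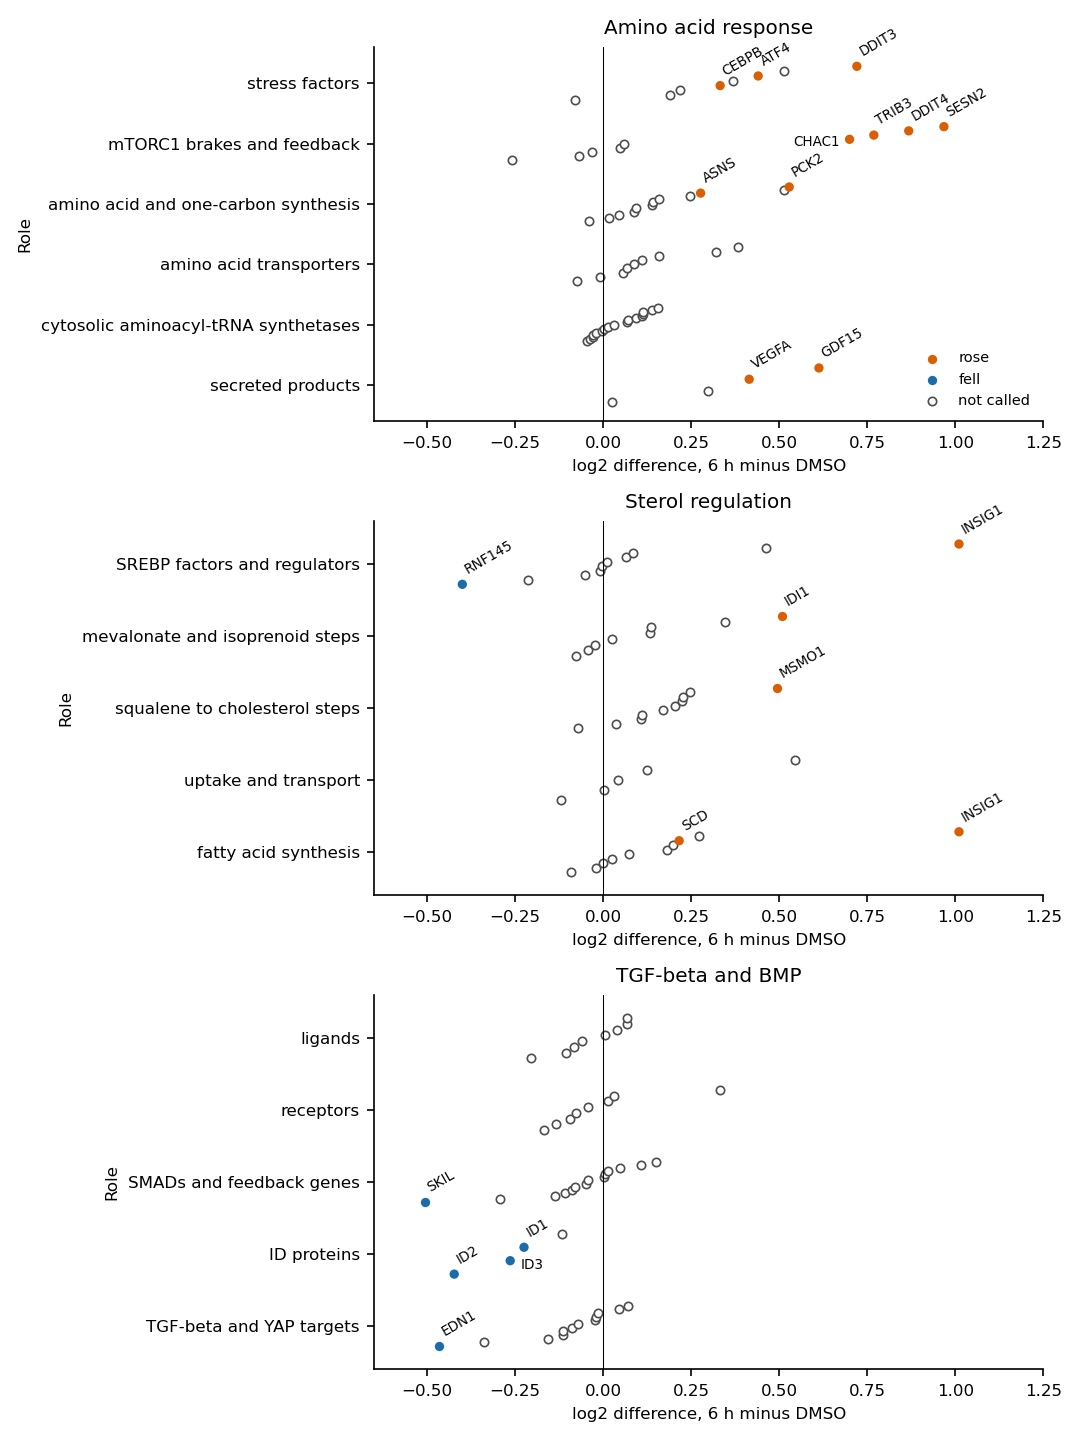
log2 difference of 6 h BRD7552 minus DMSO (x axis) for the tested genes of 3 pathways, grouped by role (y axis), 1 point per gene, orange where a gene rose, blue where it fell and open where it did not pass. The calls of the amino acid response lie in the stress factors, the brakes, the synthesis enzymes and the secreted products, and none lies in the transporters or the aminoacyl-tRNA synthetases. INSIG1 appears in both sterol roles that list it, and each called gene of the TGF-beta and BMP panel is left of 0.

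The list of TGF-beta and BMP genes also held targets of another factor, YAP: of 46 tested, 12 were listed as TGF-beta and YAP targets. The calls on this list were all falls. Among the 46 tested, 5 fell, 0 rose and 41 did not pass, against 0.11% of all genes that fell, and the median was -0.074. The ID proteins, which bind and silence basic helix-loop-helix factors, gave 3 of these. ID1, the brightest, read 6715, 6781 and 6531 units on the DMSO arrays and 5960.4, 5786 and 5399 at 6 h, ID2 read 823, 909 and 813 units on the DMSO arrays and 624, 693 and 583 at 6 h, and ID3 read 1833, 1908 and 1782 units on the DMSO arrays and 1578, 1552 and 1468 at 6 h. ID2 fell by 0.42 on the log2 scale (SE 0.072), ID3 by 0.26 (SE 0.048) and ID1 by 0.23 (SE 0.043). Each lost its call without some arrays: ID2 without DMSO replicate 2 or 6 h replicate 3, ID3 without DMSO replicates 1 or 2 or 6 h replicates 2 or 3, and ID1 without each array in turn except 6 h replicate 1. With arrays centred on their medians 1 of the 3 calls was left. ID4 was dim and stood at -0.12 ± 0.16.

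SKIL, a repressor of SMAD factors that TGF-beta induces, read 921, 987 and 838 units on the DMSO arrays and 550.2, 628 and 767 at 6 h. The 6 h arrays spread widely, and the call was lost without DMSO replicates 1 or 2 or 6 h replicates 1 or 2, and with the mean of all probe sets, at -0.18. EDN1, which encodes the peptide endothelin 1 and is a TGF-beta target in several cell types, read 548, 607 and 621 units on the DMSO arrays and 422, 429.7 and 432 at 6 h, and its call held whichever array was left out. PMEPA1, a membrane protein that dampens TGF-beta signals, just missed the threshold. Its brightest probe set read 1761, 1527 and 1688 units on the DMSO arrays and 1303, 1312 and 1439.9 at 6 h (log2 -0.29 ± 0.062, limma adjusted p = 0.0538). In the fit of all probe sets another PMEPA1 probe set passed, at -0.34, and the last stood at -0.33. SMAD6 and SMAD7, inhibitory SMADs, stood at -0.14 and -0.089. Limma called 0 of 8 ligands and 0 of 8 receptors, of which 0 and 3 had an unadjusted p under 0.05, beside 4.59% of all genes. TGFB2 stood at -0.21, TGFBR2 at -0.17 and TGFBR3, a co-receptor, at 0.33. The matrix gene CCN2 stood at -0.16 and CCN1 at -0.024.

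In the HOXB and HOXC clusters 7 genes rose, beside 0.363% of all genes. All 9 tested HOXB genes and all 8 tested HOXC genes had values above 0, as did 6279 of the 12678 genes tested, with medians of 0.25 and 0.38, and 4 and 3 of them passed. In the HOXC cluster, HOXC6 read 1102, 1129.7 and 1135 units on the DMSO arrays and 1735, 1695 and 1688 at 6 h and rose 1.52-fold (log2 0.60 ± 0.038, limma adjusted p = 6.53e-07). HOXC9 read 144, 168 and 158 units on the DMSO arrays and 263, 291 and 263 at 6 h, and HOXC10 read 479, 498 and 489.6 units on the DMSO arrays and 712, 718 and 668 at 6 h. In all 3 the lowest 6 h array lay clearly above the highest DMSO array. HOXC4 stood at 0.46 ± 0.098, just short of passing (limma adjusted p = 0.0605), HOXC11 at 0.31, HOXC8 at 0.23, HOXC13 at 0.15 and HOXC5 at 0.026. For HOXC5, HOXC8 and HOXC13 the groups overlapped, and HOXC5 and HOXC8 were also dim.

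In the HOXB cluster, HOXB8 read 236, 248 and 273 units on the DMSO arrays and 412, 395 and 421 at 6 h, and HOXB6 read 354, 384 and 389.5 units on the DMSO arrays and 568, 548 and 562 at 6 h. HOXB3 was brighter and read 686, 716 and 644 units on the DMSO arrays and 873, 880.4 and 949.9 at 6 h, while HOXB5 read 337, 332 and 329 units on the DMSO arrays and 442, 418 and 418 at 6 h. HOXB5 lost its call whichever array was left out, and the other 3 kept it. With the mean of all probe sets of a gene, dim ones included, HOXB3, HOXB6 and HOXB8 did not pass, and their log2 values were 0.30, 0.26 and 0.45, while HOXB5 passed. HOXB4 and HOXB7 stood at 0.16 and 0.14, and HOXB2, the brightest but for HOXB7, at 0.075 ± 0.054. With arrays centred on their medians 3 of the 4 HOXB calls were left. HOXB2, HOXB4, HOXB7, HOXB9 and HOXB13 did not pass, although the groups did not overlap for any of the 9 HOXB genes, beside 12.2% of all genes (6.26% higher at 6 h). HOXB9 stood at 0.18 and the dim HOXB13 at 0.25 ± 0.16. Of 11 listed HOXA genes and 9 listed HOXD genes 1 each was tested, HOXA2 and HOXD1, and neither passed (log2 0.17 and 0.20). The other listed genes of these 2 clusters had no probe set of 1 symbol above the filter. Whether those genes changed is therefore not known from the comparison by gene, and probe sets with several symbols or none were not named. Limma called 0 of 9 cofactors of the MEIS, PBX, PKNOX and TGIF families, with values from -0.089 to 0.13. Of these 9, 1 had an unadjusted p under 0.05, beside 4.59% of all genes. Probe set names ending in s_at or x_at mark probes that match several transcripts, and those of HOXC6, HOXB5, HOXB6 and HOXB8 are of this kind, as are those of 25 of the 60 called genes.

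**Figure D4:**
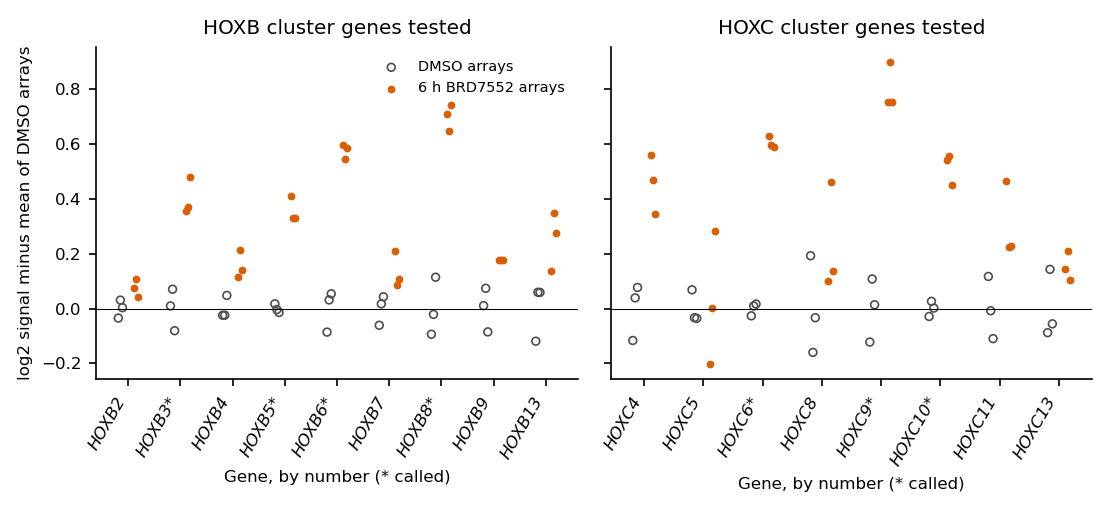
log2 signal of every array minus the mean of the 3 DMSO arrays (y axis) for the tested genes of the HOXB (left) and HOXC (right) clusters, ordered by gene number, with open circles for DMSO and orange points for 6 h BRD7552. Starred genes passed the test. The 6 h points of HOXC9, HOXB8 and HOXC6 lie highest, and HOXC5, HOXC8 and HOXC13 show overlap between the groups.

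Other developmental factors were mixed. PAX2, a paired-box factor of kidney and urinary tract development, read 226, 240.3 and 239 units on the DMSO arrays and 395, 385 and 385 at 6 h and rose 1.65-fold. PAX8, EYA2 and EYA3 stood between -0.051 and 0.041 without passing. GATA5, an endoderm and heart factor, read 224, 177 and 209 units on the DMSO arrays and 286, 275 and 280.1 at 6 h, and a further GATA5 probe set also passed in the fit of all probe sets, at 0.63. The call of GATA5 was lost without each array in turn except DMSO replicate 1. GATA4 read 101, 94.4 and 90.0 units on the DMSO arrays and 130.3, 141 and 133 at 6 h, but its other probe sets stood at 0.063, 0.028 and -0.29, and it lost its call whichever array was left out. The mean of all its probe sets stood at 0.074. GATA6 stood at 0.38 ± 0.20 with overlapping groups, FOXA2 at 0.13 and SOX9 at 0.058. DLX2, a homeobox factor, fell by 0.33 on the log2 scale, from 329, 361 and 340.3 to 261, 275 and 283 units, and DLX1 beside it stood at -0.37 ± 0.14. DLX2 was among the calls nearest to the threshold and was lost whichever array was left out, and with the mean of all probe sets, at -0.20.

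PDX1, by which the dose was set, showed no detectable difference at 6 h on these arrays. It read 20.1, 18.8 and 21.2 units on the DMSO arrays and 19.2, 18.9 and 16.9 at 6 h, close to the filter, with overlapping groups (log2 -0.13 ± 0.17, limma adjusted p = 1.00). The 95% interval for the ratio to DMSO was 0.707 to 1.19. INS, which encodes insulin, read 8.02, 8.48 and 6.79 units on the DMSO arrays and 7.25, 7.56 and 7.56 at 6 h, and NKX6-1, a beta cell factor, read 8.86, 9.97 and 11.6 units on the DMSO arrays and 9.87, 11.0 and 11.0 at 6 h, both below the filter. Exact permutation tests, two-sided, returned p = 0.3 for PDX1, 0.7 for INS and 0.7 for NKX6-1, where 3 arrays against 3 cannot go below 0.1. Of 16 listed endocrine factors and hormones 2 were tested, PDX1 and MNX1, with MNX1 at 0.014.

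Lists of other signals gave 1 or 2 calls each, beside 0.363% of all genes that rose and 0.11% that fell. In the Notch pathway NRARP, a feedback inhibitor, read 183, 165 and 171 units on the DMSO arrays and 251, 243 and 244 at 6 h and rose, while the repressor HES1 read 535, 575 and 579 units on the DMSO arrays and 417, 417 and 417 at 6 h and fell. Both are Notch targets, and 4 of 6 targets and all 8 receptors and ligands did not pass. HES1 lost its call whichever array was left out, whereas NRARP kept it. HES1 also did not pass with the mean of all probe sets, at -0.27. For JUN, an AP-1 subunit, the fall was small (log2 -0.18 ± 0.036), from 2776, 2794 and 2755 to 2483, 2483 and 2398 units, as 1 of 6 tested subunits. JUNB stood at -0.18 and JUND at 0.31. EGR1, an immediate early factor, stood at -0.39 ± 0.14, and KLF10, induced by TGF-beta, at -0.31 ± 0.083, where 6 h replicate 3 overlapped the DMSO arrays.

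Among inflammatory genes, the chemokine gene CCL2 read 3948, 3903 and 4207 units on the DMSO arrays and 3527, 3324 and 3429.8 at 6 h and fell by 0.23 on the log2 scale, a call lost without DMSO replicates 1 or 3 or 6 h replicates 2 or 3. It was the 1 of 12 tested that passed, beside 0.11% of all genes that fell. Of the 12, 11 lay below 0, as did 6399 of the 12678 genes tested, and the median of the 12 was -0.15. CXCL8, a neutrophil chemokine, read 179, 157 and 175 units on the DMSO arrays and 123, 119 and 123 at 6 h without passing, and IL11, an IL6-family cytokine, stood at -0.43 ± 0.13. TIPARP, a PARP enzyme and target of the aryl hydrocarbon receptor, fell from 1258, 1232 and 1271 to 1037, 1014 and 1056 units, a call lost whichever array was left out. The receptor's best known targets CYP1A1 and CYP1B1 stood at 0.046 and -0.010. KISS1R, the kisspeptin receptor, read 97.8, 100.3 and 94.9 units on the DMSO arrays and 137, 144 and 144 at 6 h, and ADCY9, an adenylyl cyclase, 254, 249.5 and 257 units on the DMSO arrays and 319.9, 324 and 324 at 6 h. Both rose and both lost the call whichever array was left out, and with the mean of all probe sets ADCY9 stood at 0.17 and did not pass. MAP1LC3B, which encodes a coat protein of autophagosomes, rose from 1015, 1086 and 1119 to 1249.6, 1335 and 1249.6 units. It was the 1 of 18 autophagy and lysosome genes that rose, beside 0.363% of all genes, and SQSTM1 stood at 0.062.

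Of the 60 called genes, 20 lay on none of the lists. BCL2L11, which encodes the pro-apoptotic protein BIM, had the largest rise among those whose calls held whichever array was left out, and read 181, 200.0 and 177 units on the DMSO arrays and 281, 272 and 281 at 6 h. Its 5 other probe sets stood between 0.059 and 0.40. RUSC1-AS1, an antisense transcript, read 50.5, 52.4 and 34.0 units on the DMSO arrays and 89.2, 89.5 and 74.8 at 6 h, a rise with a wide error (log2 0.91 ± 0.18, limma adjusted p = 0.0413) lost whichever array was left out. Kinase genes among them were MKNK2, a kinase of the translation initiation machinery, which read 1163, 1287 and 1209 units on the DMSO arrays and 1515, 1532 and 1580.3 at 6 h, and TAOK3, which rose by 0.32 on the log2 scale. OGT, the enzyme that attaches O-GlcNAc to proteins, read 929.5, 947 and 915 units on the DMSO arrays and 1238, 1186 and 1191 at 6 h. ZNF503, a zinc finger repressor of development, read 317, 358 and 335 units on the DMSO arrays and 468, 504 and 468 at 6 h. MKNK2, OGT and ZNF503 kept their calls whichever array was left out. With the mean of all probe sets OGT, ZNF503 and BCL2L11 did not pass (log2 0.21, 0.14 and 0.27) and RUSC1-AS1 stood at 0.45, and without a trend in the prior variance MKNK2 did not pass.

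Chromatin and nuclear proteins included BCOR, a Polycomb corepressor (1.30-fold), and CBX5, a heterochromatin protein (1.26-fold), both near the threshold. MIDN, which encodes midnolin, a protein that delivers nuclear factors for degradation, rose 1.39-fold. GLIS2, a zinc finger factor, rose 1.23-fold. TSC22D3, a leucine zipper gene known for its induction by glucocorticoids, read 93.3, 112 and 108 units on the DMSO arrays and 151, 141 and 152 at 6 h. GPCPD1, which breaks down glycerophosphocholine, read 177, 177 and 157 units on the DMSO arrays and 214, 266 and 252 at 6 h. IDH1, isocitrate dehydrogenase, rose 1.22-fold, LAMA5, a laminin chain of basement membranes, by 0.32 on the log2 scale, ATOSA 1.34-fold and SOWAHC 1.14-fold. GLIS2, TSC22D3 and BCOR lost their calls whichever array was left out, CBX5, GPCPD1, IDH1 and SOWAHC without 5 of the 6 arrays in turn, MIDN, LAMA5 and TAOK3 without 4 and ATOSA without 3. With the mean of all probe sets TSC22D3 stood at 0.20, MIDN at 0.21, GPCPD1 at 0.31 and CBX5 at 0.13, and none of these 4 passed. The falls outside the lists were those of UGCG, which makes glucosylceramide (from 2024, 2123 and 2101 to 1747, 1647 and 1809 units), TARDBP, an RNA-binding protein gene (from 1699.7, 1703 and 1675 to 1481, 1342 and 1438 units), and STAMBPL1, a deubiquitinase (from 1109, 1103 and 1078 to 929, 929 and 929 units). Each of the 3 fell by 0.24 to 0.26 on the log2 scale, and STAMBPL1 lost its call without each of 6 arrays, TARDBP without 5 and UGCG without 3. TARDBP and UGCG did not pass with the mean of all probe sets, both at -0.13.

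Several probe sets of a gene gave a second reading from the same RNA. Of the 60 called genes, 32 had at least 1 other probe set above the filter, 59 in all, of which 55 had the same sign (93.2%) and 24 also an unadjusted p under 0.05 (40.7%). For genes not called, where the sign agreed for 58.1% of 10511 other probe sets, 1.98% had the same sign and an unadjusted p under 0.05. These probe sets share the arrays, so their agreement covers the probes and not the cultures. The 4 of opposite sign belonged to GATA4, TARDBP and CBX5, the last with a pair. INSIG1 stood at 0.84 and 0.54, SESN2 at 0.99, TRIB3 at 0.54, PAX2 at 0.38, HOXB5 at 0.41, MKNK2 at 0.39 and IDH1 at 0.25 by their other probe sets. Among the falls, RNF145 stood at -0.50, EDN1 at -0.40 and -0.23, HES1 at -0.32 and ID2 at -0.43. For SKIL (-0.24 and -0.042), UGCG (-0.077 and -0.060), VEGFA (0.18 to 0.21) and OGT (0.077 to 0.26) the others were smaller than the one used. IDI1 had 0.54 and 0.055, the latter from a dim probe set.

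**Figure D5:**
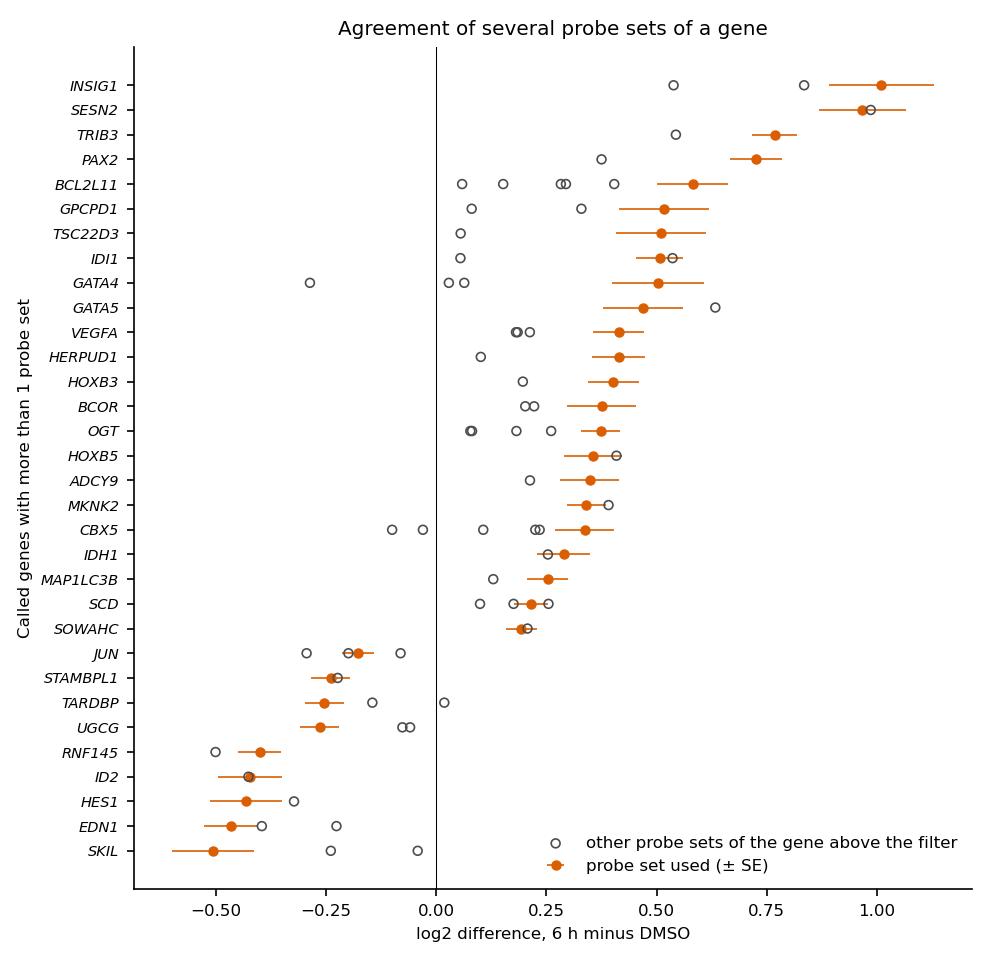
log2 difference of 6 h BRD7552 minus DMSO (x axis) for the 32 called genes with several probe sets above the filter (y axis), with the probe set used in orange (bar, SE of the limma estimate) and the others as open circles. All but 4 of the 59 open circles lie on the same side of 0 as the orange point, and most lie closer to 0.

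Fitted and adjusted over all 54675 probe sets, 40 passed (0.0732%), 37 higher (0.0677%) and 3 lower. They included 33 probe sets with 1 symbol, from 30 genes, of which 29 were also called gene by gene and the other was PMEPA1. GATA5, IDI1, INSIG1 and SESN2 each had a further probe set, beside the one used, that passed there. At the threshold of the fit by gene, the 5 calls just inside were JUN, GATA4, IDH1, DLX2 and BCOR, with adjusted p from 0.0441 to 0.0496. The 5 just outside were LPCAT1 (-0.22), PMEPA1, BAHCC1 (0.52), JMY (0.74) and TBX1 (0.36), with adjusted p from 0.0506 to 0.0605 and log2 values in parentheses. JMY, an actin nucleator, had the largest difference of these 5, and its 6 h arrays spread from 101 to 145 units over DMSO arrays of 73.4 to 77.3 units.

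The 72 h arrays were set beside these values as levels, since both times share the DMSO arrays. Some genes stood further from DMSO at 72 h than at 6 h. ASNS had a mean of 1802 ± 43.9 units at 6 h and 3607 ± 41.8 at 72 h, PCK2 164 ± 11.1 and 325 ± 10.2, KISS1R 142 ± 3.89 and 389 ± 60.6, MKNK2 1543 ± 33.6 and 2885 ± 67.5, and ADCY9 323 ± 2.48 and 633 ± 51.1. Others stood nearer to DMSO at 72 h. GPCPD1 had 170.1 ± 11.7 units in DMSO, 244 ± 26.8 at 6 h and 166 ± 15.4 at 72 h, SCD 1509 ± 20.5, 1752 ± 23.2 and 1439 ± 29.4, TARDBP 1693 ± 15.6, 1420.5 ± 70.8 and 1615 ± 52.3, and DDIT3 359 ± 10.1, 592 ± 31.1 and 466 ± 26.3 (mean ± SD, n = 3 arrays each). The differences between the times were not tested here.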

How the data were processed

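Expression was measured on 9 single-colour Affymetrix arrays of PANC-1 RNA. As deposited by the authors, the values are linear intensities of 54675 probe sets from 4.54 to 25052, and the submitters' processing notes name MAS5; its version and settings are not stated in what was used here. Equal values across arrays occurred in 59.2% of probe sets, which is unusual for MAS5 alone. Whether a further normalization followed is therefore unknown, and SDs of 0 and the rescaled alternatives are to be read with that limit.

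Intensities were taken to log2 with no added constant or further scaling. Of the probe sets, 41097 had 1 gene symbol in the platform annotation, 1801 several and 11777 none, and those with several or none were not named by gene. For each of 19775 genes the probe set brightest on average over all arrays was used, and the 12678 genes at or above the median probe set mean (17.8) were tested. limma 3.58.1 in R 4.3.3 was fitted to all 9 arrays with a trended prior variance, so that the 72 h arrays add to the estimate of spread (6 residual degrees of freedom). The contrast was 6 h minus DMSO, with Benjamini-Hochberg adjustment over all genes tested, called below 0.05. A single simulated set for this comparison (12678 genes) was drawn with independent normal errors and no ties. In it the fit called 24.7% of 73 genes changed by 0.25 log2 units, 52.2% of 67 at 0.5 and 91.7% of 60 at 1. There were 7 false calls of 115. The deposited values hold many ties, so these shares need not hold for them.

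The comparison, its gene lists and the motifs were chosen with earlier results of these data known. Named are PDX1, INS and NKX6-1, any called gene, the genes nearest to the threshold, and list members that did not pass. The last include members with small as well as large differences. The alternatives changed the scaling, the filter, an added constant, the summary over probe sets, the arrays fitted, the prior variance, a replicate block, array weights and each replicate in turn.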

Additional observations from a re-analysis of the deposited data

How the results depend on the processing

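The count of 60 called genes fell to 37 with arrays centred on their medians (33 higher, 4 lower), to 23 with the mean of all probe sets of a gene and to 23 without a trend in the prior variance. It reached 211 with array weights, an alternative chosen after seeing the data, and ran from 28 to 44 with 1 array left out, where fewer samples were fitted. For the others the cause was not tested. The other alternatives lay within 1.5 times: quantile normalization gave 80, cyclic loess 81, no filter 42, a stricter filter 68, log2(value + 16) 58 and only the DMSO and 6 h arrays 75. Leaving out genes tied on all arrays of a group gave 53, also chosen after seeing the data. With a replicate block the count was 54, and 83 with the block on the 6 arrays alone, the latter added after seeing the data. The replicate numbers showed no clear pairing of the arrays. Deviations of same-numbered arrays correlated at 0.20, 0.17 and -0.19, and 1 of 3 correlated best with its own number. With 3 arrays per group this cannot exclude that cultures were paired. Of the 60 genes, 12 kept their call in all alternatives that included them: SESN2, TRIB3, DDIT3, DDIT4, INSIG1, MSMO1, HOXC6, HOXC9, HOXC10, PAX2, NRARP and EDN1. In these alternatives 0 of the 60 changed sign, which leaving out an array could not have brought about. PDX1, INS and NKX6-1 passed the threshold in no alternative that tested them. The number of arrays and, for dim probe sets, the signal near the filter limit what can be detected.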

Other observations

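Lists that gave no calls leaned to 1 side in part. Of 19 tested G2/M genes, which act in mitosis, 18 lay below 0, with a median log2 difference of -0.055 and values from -0.17 to 0.065. For these limma called 0, while 4 had an unadjusted p under 0.05. Of 9 metallothionein and zinc genes, which bind or move metal ions, 8 lay below 0, with a median of -0.093. For these limma called 0 and 6 had an unadjusted p under 0.05. Beside them, 6399 of the 12678 genes tested lay below 0, and 4.59% had an unadjusted p under 0.05. Among 15 hypoxia targets 2 rose, beside 0.363% of all genes. These were DDIT4 and VEGFA, which are also on the amino acid response list. Of 11 listed heat shock genes only 8 were tested. These 8 stayed between -0.043 and 0.073, and 0 of 8 passed by limma, with 0 at an unadjusted p under 0.05. Listed genes without a probe set of 1 symbol above the filter were not tested, so these values do not cover them. Among probe sets with several symbols, 3 passed in the fit of all probe sets. Whether any of them reads an untested heat shock gene was not examined.

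Of the 40 probe sets called over all probe sets, 7 carry several gene symbols or none and are not named by gene here. All 7 were higher at 6 h. The largest differences among them were log2 0.60 ± 0.072 and 0.59 ± 0.067 (standard errors, n = 3 per group), both from probe sets with no overlap between the groups. The former read 323, 329.9 and 290.4 units on the DMSO arrays and 473, 465 and 489 at 6 h.

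Other motifs were counted in the same promoters. The palindrome CACGTG lay in 6 of 32 promoters of genes that rose and 1 of 13 of genes that fell, beside 8.94% of those of genes tested. The letters GTAAACA lay in those of BCL2L11 and GDF15, beside 1.92% of those of genes tested, and TGACGTCA in that of SKIL, beside 2.90%.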
